A study of Mus musculus with 2 samples.

Results

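The genes described here are the Notch receptors, their ligands and the target *Hes1* in *Sox9* GFP-high chondrospheres. They were taken by gene symbol, 4 receptors (*Notch1*, *Notch2*, *Notch3* and *Notch4*), 5 ligands (*Jag1*, *Jag2*, *Dll1*, *Dll3* and *Dll4*) and *Hes1*, and all 10 are among the 23628 genes listed. RNA-sequencing covered 2 libraries of 1 condition, labelled MC-SOX9-GFPhi and called here the first library (replicate 1) and the second (replicate 2). All cells were homozygous for the *Sox9*-IRES-EGFP reporter, came from the femoral heads of pups at postnatal day 7, were sorted for high GFP and against CD31, Ter119 and CD45, and were grown at low density into colonies in methylcellulose in a hypoxic chamber with FGF2, BMP4, IGF1, LIF and TGF-β1. Each pup was harvested as a separate biological replicate in the study's methods, but the labels do not tie the libraries to pups, so the spread between them may be in part technical. There is no second group, and no test between groups was made.

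Notch receptors are single-pass membrane proteins that are activated by ligands of the Jagged and Delta-like families on a neighbouring cell. Binding exposes the receptor to cleavage by ADAM proteases and then by γ-secretase, and the released intracellular domain joins the DNA-binding protein RBPJ and a Mastermind-like coactivator to switch on genes of the HES and HEY families. In cartilage the pathway is known for its part in the passage of progenitors into chondrocytes and in the later maturation of chondrocytes, and RBPJ-dependent Notch signals are known to restrain *Sox9*.

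The deposited values are in CPM, read counts scaled to a common library total, from which an offset of 0.0001 CPM was subtracted. The commonest value above 0 implies gene-assigned reads of about 43300000 for the first library and 42100000 for the second, and 3 reads, taken as the smallest level that can be shown, correspond to 0.0693 and 0.0712 CPM. These limits, and the read numbers and counting errors below, cover counting error only, since the library protocol names no molecular identifiers. All 8 chondrocyte markers (*Sox9*, *Col2a1*, *Acan*, *Col9a1*, *Col11a2*, *Comp*, *Hapln1* and *Matn3*) were above 1 CPM with a sum of 183883 CPM in the first library and 128111 in the second. Of 8 endothelial markers, *Cdh5*, *Kdr*, *Tie1*, *Tek*, *Emcn* and *Sox17* were listed at 0 in both libraries. *Pecam1* was measured at 0.231 and 0.166 CPM, whereas *Erg*, a transcription factor gene also expressed in articular cartilage, had 54.3 and 14.5 CPM. The 7 listed blood cell markers summed to 3.35 and 3.69 CPM.

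Promoter windows from RefSeq (GRCm38.p6), 250 bases before to 50 after a start, were matched by symbol for 9 of the 10 genes, all but *Hes1*. The stretches just before the first annotated start are shown for the receptor with the highest level, *Notch2* (chr3:98013407-98013526, + strand), and for the receptor that differed most between the libraries, *Notch4* (chr17:34564148-34564267, + strand). Both read 5′ to 3′, and capitals mark the CpG dinucleotides.

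*Notch2*: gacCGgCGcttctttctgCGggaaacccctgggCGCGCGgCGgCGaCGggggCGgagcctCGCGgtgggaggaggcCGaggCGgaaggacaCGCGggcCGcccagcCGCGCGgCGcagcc
*Notch4*: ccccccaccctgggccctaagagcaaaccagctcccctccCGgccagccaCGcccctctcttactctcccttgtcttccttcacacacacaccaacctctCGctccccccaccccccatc

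The *Notch2* stretch holds 21 CpG sites in 120 bases and the *Notch4* stretch 3 in as many. Over the whole windows of 300 bases, the ratio of observed to expected CpG was 1.04 for *Notch2* and 0.214 for *Notch4*, against a median of 0.384 over 32851 windows. A GC content of at least 50% together with a CpG ratio of at least 0.6 was met by 7 of the 10 windows of these genes (*Dll1* has 2) and by 33.5% of all windows. It was also met by 35 of the 58 windows of the other pathway genes listed further on. The windows of *Notch4*, *Dll3* and *Dll4* did not meet it. Of the 10 windows, that of *Jag2* had the highest CpG ratio, 1.14, at a mean level of 0.408 CPM. The core of the RBPJ motif, TGGGAA, was searched on both strands and was found in none of the 10 windows, while 25.6% of all windows hold it. Among the other pathway genes listed further on, 15 of 58 windows, from 14 of 40 genes, had it, a share near that of all windows. They include windows of *Rbpj*, *Lfng*, *Hes5*, *Hey2* and *Hes7*, and also of *Aph1a*, *Psenen* and *Spen*, while those of the targets *Nrarp* and *Dtx1* had none.

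*Notch2* was the predominant receptor in the chondrospheres. It lies on chromosome 3 of GRCm38 from 98013527 to 98150361 and was measured at 67.9 CPM in the first library and 126 in the second (mean 96.9 ± 40.9 CPM, SD, n = 2). These values rest on about 2941 and 5304 reads, and the gene ranked 1134 of all genes by mean. Levels of different genes are compared below after division by exonic length, as CPM per kb of exons. On this scale *Notch2* had 6.30 CPM per kb in replicate 1 and 11.7 CPM per kb in replicate 2, and it took 88.4% and 80.5% of the receptor total.

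*Notch1*, a receptor with a known role in early blood and vessel formation, is on chromosome 2 from 26457903 to 26516663. It had 6.10 CPM in the first library and 3.50 in the second (4.80 ± 1.84 CPM, SD, n = 2), or about 264 and 148 reads. Per length, *Notch2* exceeded *Notch1* by 14.7-fold in replicate 1 and 47.4-fold in replicate 2, and the mean log2 ratio of 4.72 was larger than its SD of 1.20 between libraries. An opposite-strand transcript gene, *0610009E02Rik*, shares 1068 exonic bases with *Notch1* and had 0.883 and 1.27 CPM. Whether the authors' gene assignment used the strand is not given in the sources used here, so reads of the pair may not be fully separated.

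*Notch4*, a receptor otherwise known from the endothelium, lies on chromosome 17 from 34564268 to 34588503. It was measured at 2.66 CPM in the first library and 18.6 in the second, on about 115 and 786 reads, and had the largest ratio between libraries of the 7 genes with a mean of 1 CPM or more, with a mean of 10.7 ± 11.3 CPM (SD, n = 2). Its share of the receptor CPM per kb was 4.63% in replicate 1 and 16.0% in replicate 2. It thus stood below *Notch1* in the first library and well above it in the second. Of the 8 endothelial markers, 6 were listed at 0 in both libraries, and the list summed to 54.6 and 14.7 CPM, nearly all of it *Erg* (centred log2 ratio -2.20). The part of endothelial cells in the *Notch4* difference was not tested.

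*Notch3*, a receptor of mural cells such as pericytes and smooth muscle, is on chromosome 17 from 32120820 to 32166852. It had 0.540 CPM in the first library and 2.14 in the second (1.34 ± 1.13 CPM, SD, n = 2), about 23 and 90 reads with 95% Poisson intervals of 14.6 to 34.5 and 72.4 to 111 reads. Its level exceeded 3 reads in both libraries but reached 1 CPM in replicate 2 only. Of the 7 listed mural markers, *Rgs5* had 0.116 and 0.641 CPM, about 5 and 27 reads, *Myh11* had 0.139 CPM against 0, and *Des* and *Abcc9* stayed at or below 0.208 CPM. The sum of the list was 731 CPM in the first library and 865 in the second, nearly all of it from *Cspg4*, *Pdgfrb* and *Acta2*, which other mesenchymal cells also express. The part of these cells in the *Notch3* difference was not tested, and in bulk RNA the number of expressing cells and the RNA per cell cannot be told apart. An opposite-strand gene, *Gm17276*, shares 488 exonic bases with *Notch3* and had 0.361 CPM in replicate 1 and 0 in replicate 2. *Notch1* exceeded *Notch3* per length by a log2 ratio of 2.68 in replicate 1 but not in replicate 2, where it was -0.10, so the order of the 2 receptors was not settled.

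*Jag1* was the main ligand. It lies on chromosome 2 from 137081456 to 137116644 and had 11.3 CPM in the first library and 20.7 in the second (16.0 ± 6.69 CPM, SD, n = 2), on about 487 and 873 reads. Per length it made up 72.4% of the ligand total in replicate 1 and 80.3% in replicate 2. *Dll1*, on chromosome 17 from 15367354 to 15376872, followed with 2.68 and 3.49 CPM (3.08 ± 0.571 CPM, SD, n = 2), and took 23.8% and 18.7% of the ligand total. *Jag1* exceeded *Dll1* per length by 3.04-fold and 4.30-fold, a log2 ratio of 1.85 ± 0.35 (SD, n = 2) that was larger than the spread between libraries.

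The other 3 ligands were low or not detectable. *Jag2*, on chromosome 12 from 112907819 to 112929776, had 0.508 CPM in the first library and 0.308 in the second. These are about 22 and 13 reads, and their 95% Poisson intervals of 13.8 to 33.3 and 6.92 to 22.2 reads overlap. *Jag1* exceeded *Jag2* per length by a log2 ratio of 5.53 ± 1.13 (SD, n = 2). *Dll3*, a Delta-like protein known to act inside the cell as an inhibitor rather than as an activating ligand, is on chromosome 7 from 28293553 to 28302238 and had 2 reads (0.0462 CPM) in the first library against 0 in the second. *Dll4*, the Delta-like ligand of endothelial tip cells, is on chromosome 2 from 119325784 to 119335962 and had the same values. Both are under the 3 reads that can be shown in either library, so *Dll3* and *Dll4* transcripts were not detectable at this depth.

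*Hes1*, which encodes a basic helix-loop-helix repressor and is on chromosome 16 from 30064384 to 30067796, had 11.0 CPM in the first library and 22.9 in the second (17.0 ± 8.46 CPM, SD, n = 2), on about 475 and 967 reads. Its exons cover 2037 bases against 10782 for *Notch2*, and per length it reached 5.39 and 11.3 CPM per kb, next to *Notch2*. The log2 ratio of *Notch2* to *Hes1* per length was 0.23 and 0.05, and turned to a mean of -0.30 when each gene was divided by its longest coding transcript, so neither stood above the other on all length scales.

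The other targets of the pathway were low. *Hey1*, a repressor related to *Hes1*, had 3.004 CPM against 1.33 in the second library, a centred log2 ratio of -1.42. That of *Hes1* had the other sign, at 0.75. Of the 6 listed *Hey1* alone had a mean above 1 CPM, and *Hes1* exceeded it per length by 5.86-fold and 27.7-fold (log2 ratio 3.67 ± 1.58, SD, n = 2). *Heyl* had 0.323 CPM, about 14 reads, against 0 in the second library. *Hey2* was listed at 0 in both libraries, *Hes7* had 1 and 3 reads, and *Nrarp* and *Dtx1* had at most 2 reads in a library. No level of *Hes5* was analysed here.

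**Figure D1:**
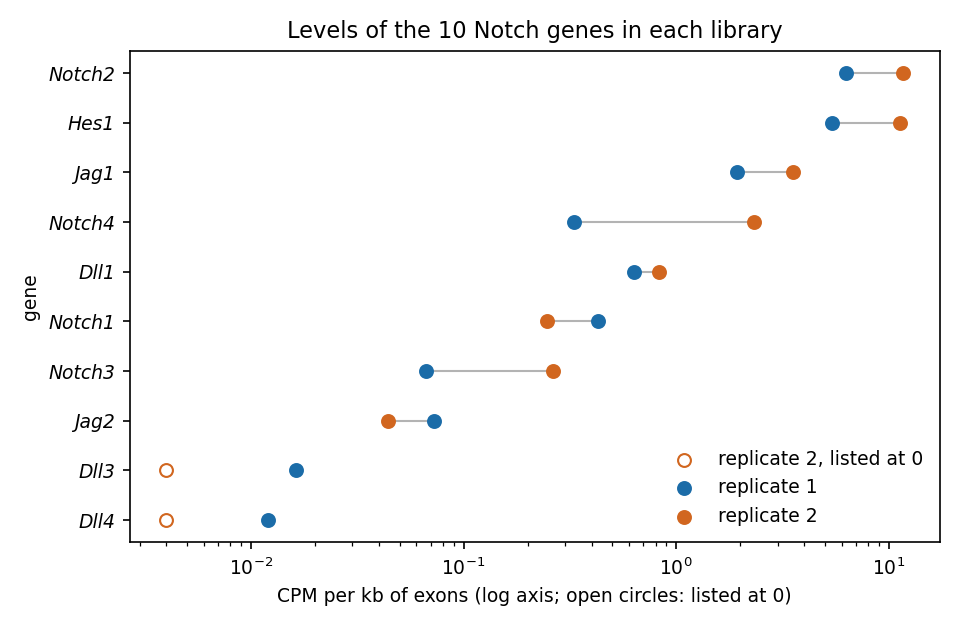
Level of each of the 10 genes in CPM per kb of exons on a log axis, with 1 point for each library and a grey line between the points of a gene. *Notch2* and *Hes1* lie highest at 5.39 to 11.7 CPM per kb, *Notch4* and *Notch3* have the longest lines between 2 values above 0, and the open circles mark *Dll3* and *Dll4*, listed at 0 in replicate 2.

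From the top, the order by mean CPM per kb was *Notch2* (8.99), *Hes1* (8.33), *Jag1* (2.74), *Notch4* (1.32), *Dll1* (0.731), *Notch1* (0.337), *Notch3* (0.165) and *Jag2* (0.0586), as the plot of levels by library shows. Among neighbours in this order, the log2 ratio did not exceed its SD between libraries for *Notch4* and *Dll1* (0.27 ± 1.72), *Notch1* and *Notch3* (1.29 ± 1.97), and *Notch3* and *Jag2* (1.22 ± 1.91, SD, n = 2 each). It exceeded the SD for *Notch2* and *Hes1* (0.14 ± 0.12), *Hes1* and *Jag1* (1.57 ± 0.13), *Jag1* and *Notch4* (1.59 ± 1.37) and *Dll1* and *Notch1* (1.16 ± 0.84, SD, n = 2 each). With 2 libraries this does not settle an order, and that of *Notch2* and *Hes1* turned on another length scale. *Notch2* was above *Jag1* per length by 3.26-fold in replicate 1 and 3.28-fold in replicate 2, a pair that was not among those planned. The SD of its log2 ratio, 0.0062 (n = 2), was below the counting error of 0.082 of the *Jag1* ratio between libraries. So close a match therefore cannot be read as a fixed proportion.

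**Figure D2:**
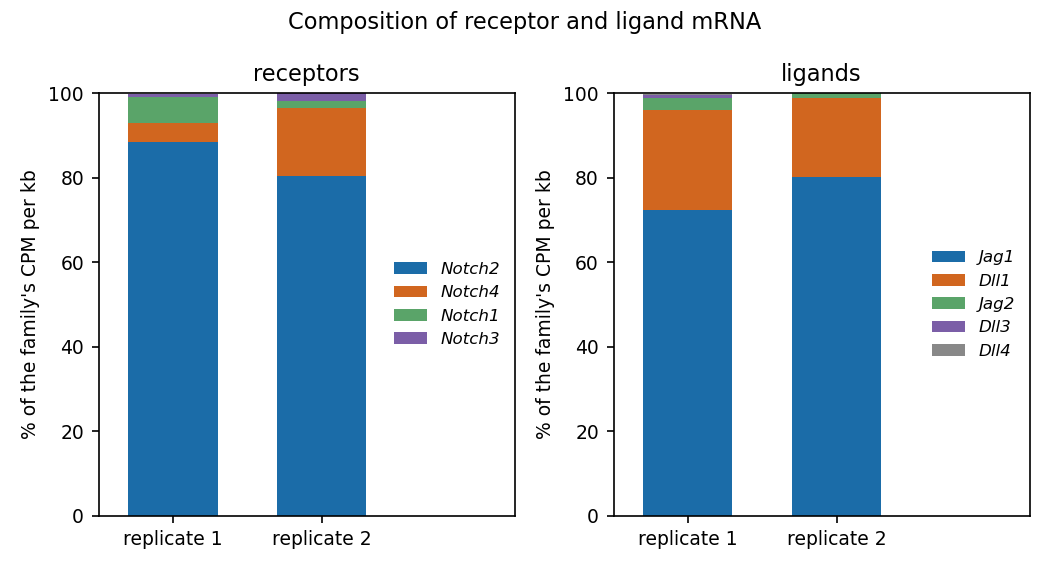
Share of each gene in the summed CPM per kb of the 4 receptors (left) and of the 5 ligands (right), in percent, with 1 stacked bar for each library. *Notch2* fills 88.4% and 80.5% of the receptor bars and *Jag1* 72.4% and 80.3% of the ligand bars, while *Notch4* widens from 4.63% to 16.0%.

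Between the libraries, the genes differed in both directions. Ratios of replicate 2 to replicate 1 were taken on log2(CPM + 0.1), a scale that understates the change of low genes, and centred by subtracting the median of 0.30 over the 12631 genes whose mean reached 1 CPM. More than 2-fold differences were found for 3 of the 7 members with such a mean, against 13.5% of all genes tested. *Notch3* reached this mean only through its higher library, and *Jag2*, *Dll3* and *Dll4* did not reach it. The share of all genes depends on their level. It was 7.10% with a minimum mean of 10 CPM, which *Notch1* and *Notch3* did not reach, so the 13.5% is not matched to the members' levels. *Notch4* was higher in replicate 2 by a centred log2 ratio of 2.46 and *Notch3* by 1.499, where 7.43% of all genes tested were higher by over 2-fold. *Notch1* was lower, at -1.09, where 6.06% of all genes were lower by as much. The counting error of the log2 ratio was 0.14 for *Notch4*, 0.33 for *Notch3* and 0.15 for *Notch1*. With 1 library on each side, these differences have no replicate check. Without centring, *Notch1* was at -0.78 and no longer past 2-fold, while *Hes1* was at 1.06 and past it, so the split of the members went from 2 higher and 1 lower to 3 higher and none lower. With a pseudocount of 1 CPM, *Notch4* alone was past 2-fold. Over all genes tested, centring gave 938 higher and 766 lower, and no centring 1435 and 468.

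The other members that reached a mean of 1 CPM stayed within 2-fold. *Hes1* had a centred log2 ratio of 0.75, *Notch2* of 0.58, *Jag1* of 0.57 and *Dll1* of 0.06. Over the 7 genes the median was 0.58, against 0 for all genes tested by construction.

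**Figure D3:**
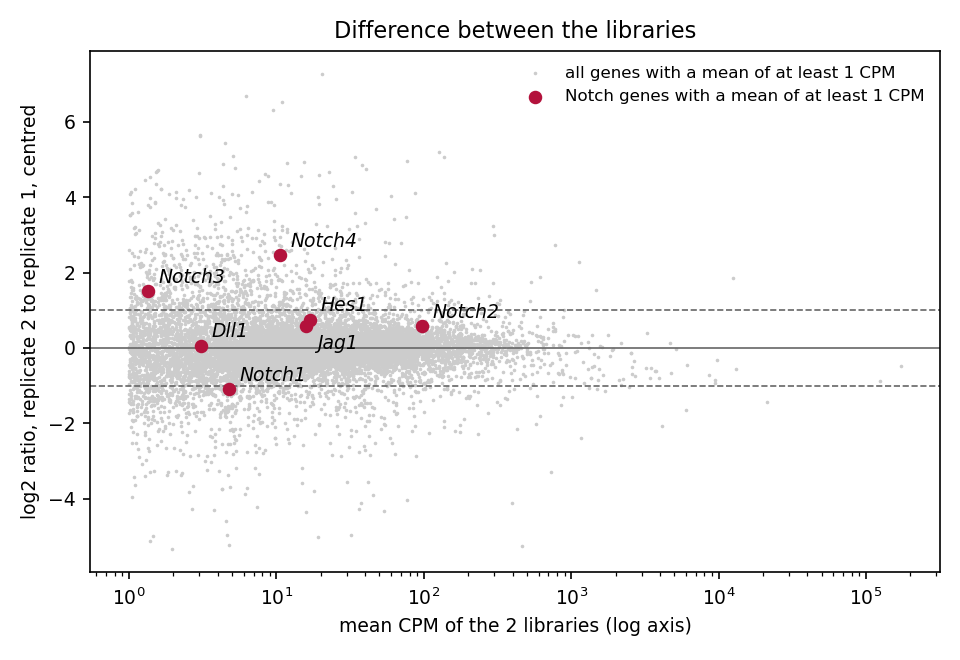
Centred log2 ratio of replicate 2 to replicate 1 against the mean CPM (log axis) for the 12631 genes whose mean reached 1 CPM, in grey, and for the 7 members among them, in red. Dashed lines mark 2-fold, and *Notch4*, *Notch3* and *Notch1* lie outside them.

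Markers of osteoblasts had higher CPM in the second library before centring. Of the 6 osteoblast and osteocyte markers, *Sp7* had 1.96 and 6.81 CPM, *Alpl* 0.462 and 1.92 CPM, *Dmp1* 0.116 and 40.4 CPM, *Ibsp* 2.24 and 3.27 CPM, *Bglap* 0.0787 and 0.229 CPM and *Phex* 0.323 and 0.807 CPM. Their sum was 5.18 CPM in the first library and 53.5 in the second, where most of it was *Dmp1*. Of the 4 with a mean of 1 CPM or more, *Sp7*, *Alpl* and *Dmp1* were over 2-fold higher after centring, against 7.43% of all genes tested. *Alpl* and *Dmp1* reached that mean only through the second library. *Ibsp* was within 2-fold at a centred log2 ratio of 0.22, as were *Bglap* (0.58) and *Phex* (0.79), which did not reach that mean. Of the 8 chondrocyte markers, 2 were more than 2-fold lower after centring, where 6.06% of all genes tested were lower by as much. None was higher, and 6 were within 2-fold. The 2 were *Matn3*, a matrix gene of growth cartilage, with 741 and 53.1 CPM, and *Col9a1* with 1881 and 1087 CPM, which was not past 2-fold without centring (log2 ratio -0.79). *Sox9* had 252 and 279 CPM. The part of these markers' cells in the differences of the Notch genes was not tested.

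The rest of the pathway was described with 7 gene lists holding 52 genes, of which 50 were listed and 37 reached a mean of 1 CPM. Of these 37, 5 were more than 2-fold higher in replicate 2, where 7.43% of all genes tested were higher. Only *Hey1* was lower by as much, where 6.06% of all genes tested were, and 31 were within 2-fold. The share past 2-fold either way was near the 13.5% of all genes tested, which was 7.10% with a minimum of 10 CPM. The 37 genes had a median centred log2 ratio of -0.03 and a median level of 30.2 CPM. All 10 genes for the nuclear complex and its co-repressors were measured above 1 CPM. *Rbpj*, which encodes the DNA-binding partner of the receptors, had 22.8 CPM in the first library and 46.0 in the second. *Maml1* had 21.4 and 33.8 CPM and *Maml2* 26.0 and 33.0 CPM. The third Mastermind-like gene, *Maml3*, had 1.39 and 4.46 CPM and a centred log2 ratio of 1.31, and its mean per length of 0.279 CPM per kb was below the 4.99 of *Maml1* and the 4.47 of *Maml2*.

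Of the 10 genes for receptor cleavage, 9 reached a mean of 1 CPM. *Furin*, the convertase that processes the receptors on their way to the surface, had 163 and 184 CPM. *Ncstn* and *Aph1a*, which encode γ-secretase subunits, had means of 63.8 and 38.6 CPM. *Adam10*, the protease of ligand-dependent cleavage, differed most, with 21.5 CPM in the first library and 77.1 in the second (centred log2 ratio 1.53). Its relative *Adam17* had 27.1 and 33.3 CPM.

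Among the genes for enzymes that add sugars to the receptors, the O-fucosyltransferase gene *Pofut1* had 46.8 and 56.0 CPM and the O-glucosyltransferase gene *Poglut1* 38.9 and 41.3 CPM. The 3 Fringe genes, whose products alter which ligands a receptor answers to, were uneven. *Rfng* had 20.8 and 18.3 CPM, *Lfng* had 0.578 CPM in the first library and 3.58 in the second (centred log2 ratio 2.14), reaching a mean of 1 CPM only through the higher library, and *Mfng* was listed at 0 in both.

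The 4 genes for ubiquitin ligases that drive ligand endocytosis all stayed within 2-fold, with *Mib1* at 61.8 ± 17.8 CPM and *Mib2* at 53.7 ± 11.6 CPM (SD, n = 2 each). Of the 7 genes of receptor turnover, *Dtx3* had 82.7 and 61.7 CPM and was the highest per length, at a mean of 28.1 CPM per kb, and *Numbl* and *Itch* had means of 49.1 and 51.5 CPM. *Dtx4*, a Deltex ubiquitin ligase gene, had 3.56 CPM in the first library and 16.8 in the second (centred log2 ratio 1.90).

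Of the 8 listed genes for non-canonical ligands, 2 reached a mean of 1 CPM. *Dlk1*, which encodes a Delta-like membrane protein known as an inhibitor of Notch signals, had 6.38 CPM in the first library and 267 in the second, on about 276 and 11250 reads, a centred log2 ratio of 5.06. In replicate 2 its level per length, 47.2 CPM per kb, was above that of each of the 10 members, whereas in replicate 1, at 1.13 CPM per kb, it was below *Notch2*, *Hes1* and *Jag1*. *Ccn3* had 1.29 and 1.02 CPM, and *Egfl7* 0.195 and 1.49 CPM.

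**Figure D4:**
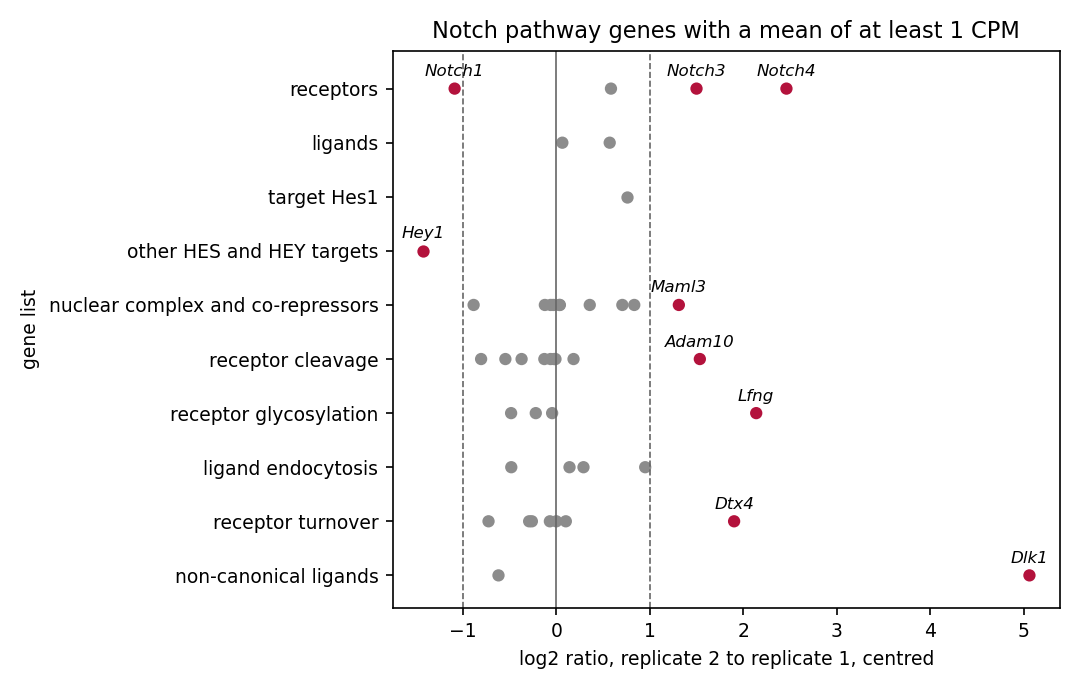
Centred log2 ratio of replicate 2 to replicate 1 for the genes of each list that reached a mean of 1 CPM, 1 point for each gene, with those past 2-fold (dashed lines) in red and named. *Dlk1* lies farthest out at 5.06, and 31 of the 37 genes outside the receptors, ligands and *Hes1* lie within 2-fold, where 13.5% of all genes tested lie past it.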

How the data were processed

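The 2 libraries were poly(A)-selected, stranded and sequenced as single-end reads of 50 bases. The authors aligned them in Partek Flow (10.0.21.0801) with STAR (2.7.3a) to GRCm38 with GENCODE M25 and assigned reads to genes by Partek E/M. The deposited values are CPM with an offset of 0.0001, which was subtracted. Of the low values, 71.8% and 71.0% were whole reads within 0.1 read, so no count model was fitted. The libraries are the only group, so levels are given per library with the mean and SD. Log2 ratios between libraries used a pseudocount of 0.1 CPM, and genes whose mean reached 1 CPM were centred on their median.

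Exonic lengths and coordinates come from GENCODE M21, also on GRCm38, where 97.2% of the names matched 1 gene. The members and gene lists were chosen with earlier results of these data known. Named genes are the members, the highest genes of each list and those past 2-fold, and further list genes were named after their values were seen. Some list genes are counted but not reported here by name. Alternatives covered scaling, pseudocount, filter, length and leaving out each library, and the computation was tested on simulated data. Scripts ran under Python 3.11.15 with scipy 1.17.1, pandas 2.3.3, numpy 2.4.6 and matplotlib 3.10.9.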

Additional observations from a re-analysis of the deposited data

How the results depend on the processing

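In all, 29 results were recomputed under other settings, giving 128 values. For 112 the shift stayed within 1 SD (1.5-fold for counts and shares), while 14 shifted further and 2 reversed. The SD was that between the libraries, but for the members' ratios between libraries it was 0.589, the spread per library over all genes tested. When 1 library is left out, a mean stays within 1 SD by construction. So does a ratio of 2 genes unless its sign changes, so the 112 overstate how stable the results are. The count of members past 2-fold, 3 as given, was 6 with a pseudocount of 0.01 CPM, which adds *Jag2*, *Dll3* and *Dll4*, and 1 (*Notch4*) with 1 CPM. *Jag1* exceeded *Dll1* by a log2 ratio of 2.32 without division by length. The log2 ratio of *Notch1* to *Notch3* ranged from -0.10 to 2.68 on leaving out a library, and that of *Notch2* to *Hes1* (0.14) was -0.30 with the longest coding transcript, an alternative chosen after seeing the data, as were the settings for the members' ratios between libraries. The share of all genes past 2-fold was 21.6% without the filter and 7.10% with a minimum of 10 CPM. Scaled to a total without the 10 most abundant genes, *Notch2* had a mean of 156 CPM and *Hes1* of 27.2 CPM, as a smaller total requires. No paired analysis was possible because the libraries are of 1 group.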
